A study of Mus musculus with 29 samples.

Results

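The 40 genes described here are a list of genes known for their roles in the myeloid lineage: granule proteins, calprotectin, growth factor receptors, C/EBP transcription factors, Fc receptors with their adaptors, surface proteins and subunits of the NADPH oxidase. The list was chosen by name with earlier results of these data known, so its counts set against all entries are a description. All 40 were found among the 24732 entries of the RNA-seq tables of 3 wild-type and 2 Pax5-/- libraries, and all 40 among the 25588 entries of the 3 Meox2-cre libraries, 39 by symbol and Emr1 by its later name. The wild-type and Pax5-/- libraries come from pro-B cells of C57BL/6 mice, sorted by FACS directly from the animal without culture, and the age of these mice is not given in the sources used here. The Meox2-cre libraries were sorted in the same way, but from pooled mice at the age of 3 weeks that carry Cre at the Meox2 locus. Their labels call them Pax5(+/+), whereas the sample list of the study gives a heterozygous Pax5 genotype. The study gated both kinds of cells as B220+ Kit+, with CD2-, IgM- and IgD- among the further markers of pro-B cells and Ly6D+ among those of Pax5-deficient progenitors, so that the groups differ in the gate as well as in the genotype, and gate and genotype cannot be told apart. Values are TPM, in which reads per gene length are scaled so that all libraries have an equal total. The labels carry no replicate numbers, those used here only name the libraries, and nothing in the labels says whether 2 wild-type or Pax5-/- libraries came from separate animals, so that p-values measure the spread between libraries.

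Neutrophils and monocytes arise from granulocyte-monocyte progenitors under the transcription factors PU.1 and C/EBPα. Neutrophil proteins are made in order: the serine proteases and myeloperoxidase of the primary granules in promyelocytes, then the proteins of the later granules and calprotectin as the cells mature. Pax5 is the factor that commits progenitors to the B cell lineage, and progenitors without it can give rise to other blood cells, myeloid cells among them. The comparison of the genotypes asks which myeloid genes differ in level between pro-B cells with Pax5 and B220+ progenitors without it.

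The promoters of 6 members were chosen to be shown, because the results below turn on these genes. Prtn3 and Elane are neighbouring primary granule genes whose levels diverged, Ngp and Ltf had the widest spread among wild-type libraries, and Clec12a and Cybb had the lowest adjusted p-values among the members called higher in Pax5-/-. Each window holds 300 bases, from 250 before to 50 after the start of the gene, in RefSeq on GRCm38.p6. Capitals mark 2 motifs searched on both strands: GAGGAA, the core bound by PU.1, and TTGCNNAA, a pattern bound by C/EBP factors. The windows lie at chr10:79879417-79879716 (Prtn3), chr10:79886062-79886361 (Elane), chr9:110419558-110419857 (Ngp), chr9:111019042-111019341 (Ltf) and chr6:129349994-129350293 (Clec12a), all on the plus strand, and at chrX:9469275-9469574 on the minus strand (Cybb).
Prtn3: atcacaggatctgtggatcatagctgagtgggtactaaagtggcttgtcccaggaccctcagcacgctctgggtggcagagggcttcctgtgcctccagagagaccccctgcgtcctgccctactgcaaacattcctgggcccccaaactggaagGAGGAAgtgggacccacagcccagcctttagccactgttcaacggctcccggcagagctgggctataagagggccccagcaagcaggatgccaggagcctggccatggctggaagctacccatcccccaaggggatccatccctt
Elane: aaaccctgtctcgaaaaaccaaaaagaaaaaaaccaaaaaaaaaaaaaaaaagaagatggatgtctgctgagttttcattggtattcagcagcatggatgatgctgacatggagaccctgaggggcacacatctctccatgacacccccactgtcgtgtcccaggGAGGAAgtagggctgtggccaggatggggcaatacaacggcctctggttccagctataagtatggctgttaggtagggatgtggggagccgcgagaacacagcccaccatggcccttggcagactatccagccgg
Ngp: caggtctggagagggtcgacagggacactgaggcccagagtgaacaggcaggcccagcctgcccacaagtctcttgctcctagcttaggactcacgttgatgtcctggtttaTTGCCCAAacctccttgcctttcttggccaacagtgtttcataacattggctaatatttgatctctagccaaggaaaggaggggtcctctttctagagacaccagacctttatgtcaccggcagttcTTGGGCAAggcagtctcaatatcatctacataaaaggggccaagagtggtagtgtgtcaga
Ltf: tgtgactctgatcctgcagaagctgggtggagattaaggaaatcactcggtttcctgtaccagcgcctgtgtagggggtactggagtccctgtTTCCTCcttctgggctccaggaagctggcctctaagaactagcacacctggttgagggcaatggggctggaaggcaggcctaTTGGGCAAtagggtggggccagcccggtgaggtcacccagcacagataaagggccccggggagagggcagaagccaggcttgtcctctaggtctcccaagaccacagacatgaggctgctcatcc
Clec12a: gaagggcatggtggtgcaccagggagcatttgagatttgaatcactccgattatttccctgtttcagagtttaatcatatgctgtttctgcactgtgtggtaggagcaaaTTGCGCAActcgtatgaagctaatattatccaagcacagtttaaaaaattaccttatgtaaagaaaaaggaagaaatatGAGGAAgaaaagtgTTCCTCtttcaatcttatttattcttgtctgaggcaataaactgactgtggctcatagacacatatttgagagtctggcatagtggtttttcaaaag
Cybb: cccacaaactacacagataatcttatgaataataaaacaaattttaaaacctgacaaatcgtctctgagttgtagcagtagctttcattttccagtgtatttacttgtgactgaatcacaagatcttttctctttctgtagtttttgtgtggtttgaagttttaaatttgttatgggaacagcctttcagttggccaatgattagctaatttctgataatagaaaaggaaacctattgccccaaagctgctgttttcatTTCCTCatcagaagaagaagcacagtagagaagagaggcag

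GAGGAA occurred once in the windows of Prtn3, Elane, Ltf and Cybb and 2 times in that of Clec12a, counting either strand, and was not among the letters of the Ngp window. In Prtn3 and Elane it began 95 and 85 bases before the start, on the strand of the gene. TTGCNNAA occurred 2 times in the Ngp window and 1 time in each of the Ltf and Clec12a windows, and the 2 motifs do not overlap each other in these windows. Of the 40 members, 29 matched the promoter table, with 30 windows. Of these windows, 63.3% held GAGGAA, against 28.3% of all 32851 windows, and 33.3% held TTGCNNAA, against 10.8%. A match describes the letters of the window and not a site in use.

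The labels were checked against known genes. Pax5 itself was at 342, 386 and 391 TPM in wild-type, at 43.0 and 39.1 TPM in Pax5-/- and at 394, 376 and 397 TPM in Meox2-cre. Cd79a, Vpreb1, Igll1, Ebf1, Cd79b and Rag1 were lower in Pax5-/- (adjusted p between 5.7e-06 and 0.026), and the lowest value among them was 147 TPM, that of Ebf1. The adjusted p of Rag1 was 0.074 and 0.057 without wild-type replicates 2 and 3, and without Pax5-/- replicates 1 and 2 it was 0.11 and 0.22 for Rag1 and 0.11 and 0.069 for Cd79b. Ly6d, part of the gate, was at 190 to 270.5 TPM in wild-type and at 2258 and 3033 TPM in Pax5-/-. Il7r (81.7 to 141 against 154 and 158 TPM), Kit (23.1 to 35.3 against 39.8 and 34.6 TPM) and Ptprc (59.3 to 70.0 against 72.1 and 74.0 TPM) had adjusted p-values of 0.11 or more. All these genes were thus expressed at 23.1 TPM or more in every library.

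The genotypes were set against each other with limma on log2(TPM + 0.5), which makes changes of low genes look smaller than they are. Tested were the 12066 entries whose mean exceeded 1 TPM in either genotype, and 33 of the 40 members were among them. Called were entries past 3-fold with an adjusted p under 0.05 whose mean exceeded 5 TPM in either genotype. Of the 33 members tested, 5 were called higher in Pax5-/- (Clec12a, Cybb, Cd33, Fcer1g and Fcgr3) and 3 lower (Anxa1, Elane and Hp), where 2.71% and 3.15% of all tested entries were called in these directions. At an adjusted p-value below 0.05 alone, 11 members were higher, against 15.6% of all entries, and 7 were lower, against 21.5%. The 7 make up 21.2% of the members tested, which is close to the background. When 1 library was left out, the members called lower were 10 without wild-type replicate 1 and 1 without wild-type replicate 2 or Pax5-/- replicate 1, and those called higher were 3 without Pax5-/- replicate 2. The members lower at an adjusted p under 0.05 were 14 without wild-type replicate 1, 2 without wild-type replicate 2, and 1 and 2 without Pax5-/- replicates 1 and 2, whereas the members higher were 6 and 4 without Pax5-/- replicates 1 and 2. The values of the genotypes did not overlap for 14 members higher in Pax5-/- (26.1% of all entries) and for 8 lower (37.4% of all entries). The median log2 fold change of the 33 members was -0.35, beside -0.12 over all tested entries. The called members have these positions in mm9 (GENCODE): Clec12a at chr6:129292709-129315321, Cybb at chrX:9012378-9064897, Cd33 at chr7:50782826-50788541, Fcer1g at chr1:173159703-173164496, Fcgr3 at chr1:172981300-172995066, Anxa1 at chr19:20447918-20465434 and Hp at chr8:112099030-112103072, with Elane given below. Fcer1g and Fcgr3 are 164.6 kb apart. In bulk libraries, fewer cells of a type and less RNA per cell cannot be told apart.

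**Figure D1:**
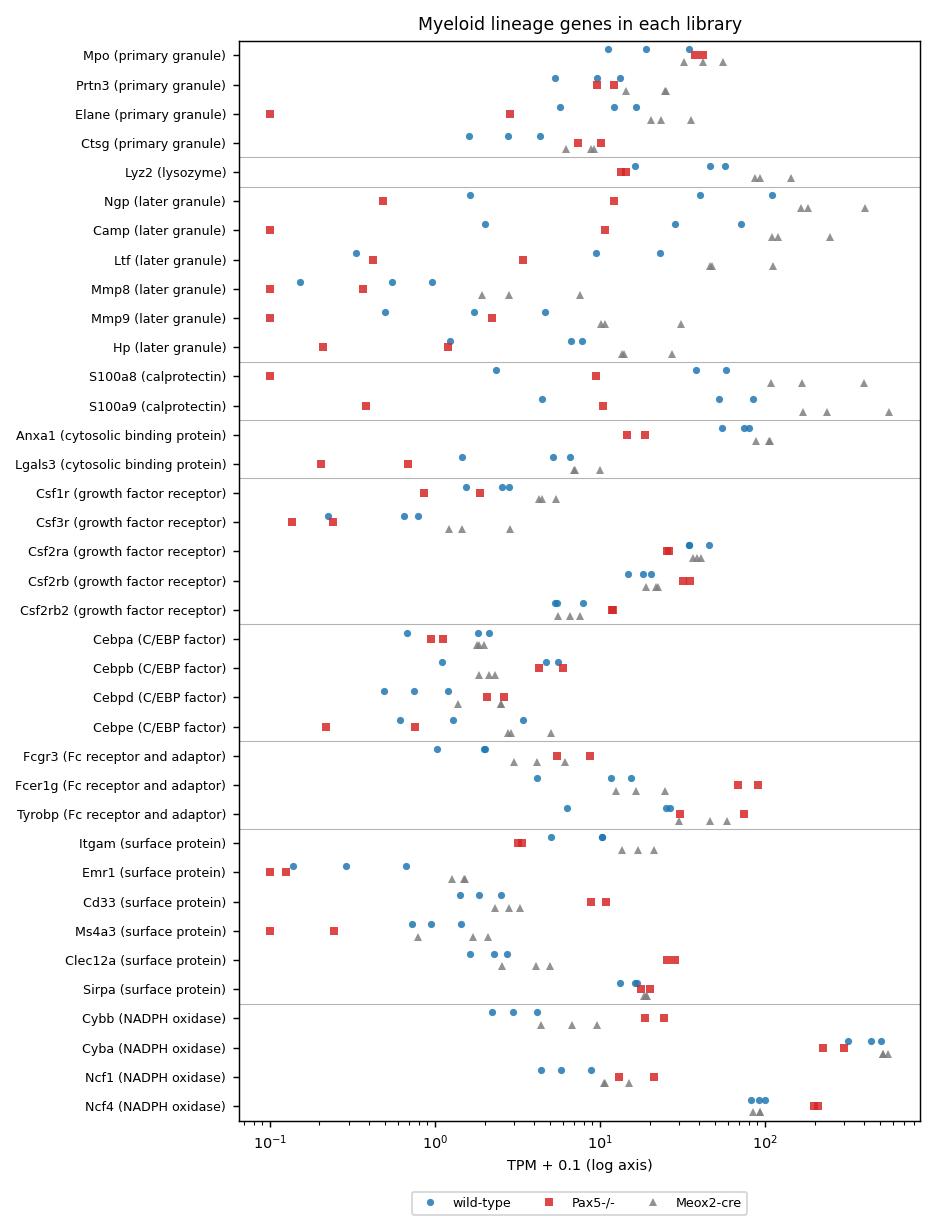
TPM + 0.1 (log axis) of the members whose mean exceeded 1 TPM in some group, 1 row per gene, ordered by role, with 1 point per library (circles wild-type, squares Pax5-/-, triangles Meox2-cre). Later granule and calprotectin genes spread widely within wild-type, from 6.77-fold in Hp to 100.2-fold in Ltf, whereas Clec12a, Cd33 and Cybb lie close together within each genotype and apart between them.

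**Figure D2:**
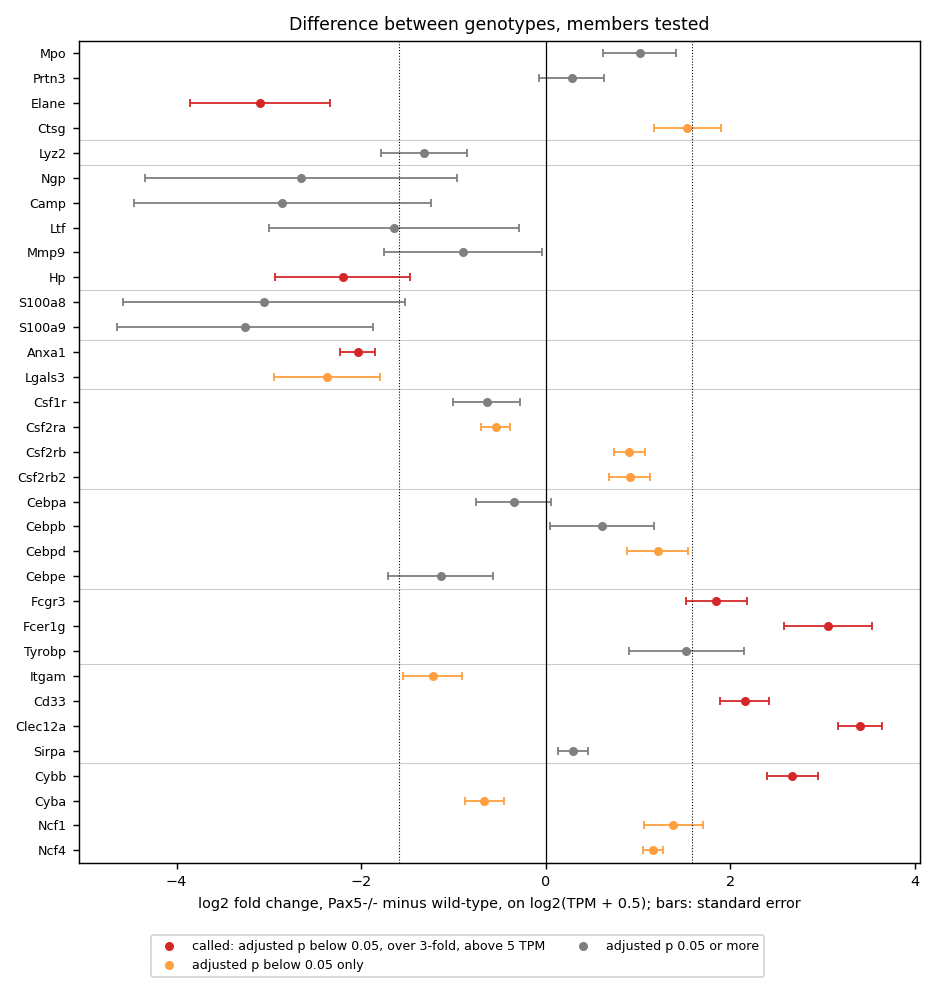
Log2 fold change of the 33 members tested, Pax5-/- minus wild-type, with its standard error, in the order of their roles; dotted lines mark 3-fold. The 5 members called higher are Fcgr3, Fcer1g, Cd33, Clec12a and Cybb, the 3 called lower are Elane, Hp and Anxa1, and the error bars are widest for Ngp, Camp, S100a8, S100a9 and Ltf.

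The genes of the primary granule did not move as one. Mpo, which encodes myeloperoxidase, was at 11.1, 34.5 and 19.0 TPM in wild-type, at 37.8 and 42.1 TPM in Pax5-/- and at 55.7, 42.2 and 32.0 TPM in the Meox2-cre libraries. Both Pax5-/- values were above the wild-type values, but the highest wild-type library came close, and the log2 fold change of 1.02 (standard error 0.40) had an adjusted p of 0.081, and of 0.012 without wild-type replicate 2. Ctsg, the gene of cathepsin G, was at 1.52, 4.21 and 2.69 TPM in wild-type, at 7.24 and 10.1 TPM in Pax5-/- and at 9.07, 8.68 and 6.15 TPM in Meox2-cre. Both Pax5-/- libraries exceeded all wild-type libraries (log2 fold change 1.54, standard error 0.37, adjusted p = 0.015), a change just short of 3-fold on the scale tested. Ctsg passed the call with a pseudocount of 0.1, with rescaling by median ratios or quantiles and without wild-type replicate 2. The adjusted p of Ctsg rose to 0.083 without Pax5-/- replicate 1 and to 0.17 without replicate 2.

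Prtn3 and Elane encode the related serine proteases proteinase 3 and neutrophil elastase, and lie 3.1 kb apart in the same orientation on chromosome 10 (mm9, GENCODE: Prtn3 from 79337221 to 79345919, Elane from 79349057 to 79350961). Prtn3 was at 5.22, 13.2 and 9.46 TPM in wild-type, at 9.47 and 12.1 TPM in Pax5-/- and at 25.2, 24.9 and 14.3 TPM in Meox2-cre. The genotypes overlapped (log2 fold change 0.28, standard error 0.35, adjusted p = 0.55), and the log2 fold change was -0.06 without wild-type replicate 1. Elane was at 5.64, 16.5 and 12.1 TPM in wild-type, was listed at 0 and at 2.76 TPM in Pax5-/-, and was at 23.3, 35.8 and 20.3 TPM in Meox2-cre. Both Pax5-/- values lay below all wild-type values (log2 fold change -3.10, standard error 0.76, adjusted p = 0.016). The ratio of Elane to Prtn3 was between 1.08 and 1.28 in the 3 wild-type libraries and between 0.926 and 1.44 in the 3 Meox2-cre libraries, but 0 and 0.229 in Pax5-/-. The test of Elane depended on single libraries: its adjusted p was 0.11 without Pax5-/- replicate 1, in which it was listed at 0, and 0.060 without wild-type replicate 2. The windows shown above hold GAGGAA at similar distances from the start of both genes.

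**Figure D3:**
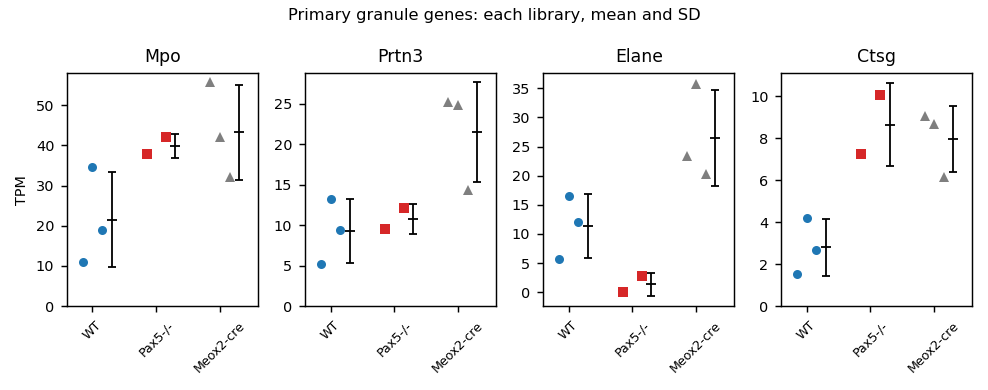
TPM of the 4 primary granule genes in each library (points), with mean and SD per group (bars beside the points; 3 wild-type, 2 Pax5-/- and 3 Meox2-cre libraries). Mpo, Prtn3 and Ctsg in Pax5-/- are at or above the middle of the wild-type values, whereas Elane in Pax5-/- is at 0 and 2.76 TPM, below all 3 wild-type libraries.

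The genes of the later granules varied widely among the wild-type libraries. Ngp, the gene of neutrophilic granule protein, was at 1.53, 111 and 40.2 TPM in wild-type, at 0.383 and 12.1 TPM in Pax5-/- and at 182, 406 and 165 TPM in Meox2-cre. Camp, which encodes the antimicrobial peptide cathelicidin, was at 1.90, 71.1 and 28.6 TPM in wild-type, at 0 and 10.7 TPM in Pax5-/- and at 121, 248 and 110.2 TPM in Meox2-cre. Ltf, the gene of the iron-binding lactoferrin, was at 0.231, 23.1 and 9.37 TPM in wild-type, at 0.324 and 3.32 TPM in Pax5-/- and at 47.7, 111 and 46.7 TPM in Meox2-cre. In all 3 genes, wild-type replicate 1 was lowest and replicate 2 highest among wild-type, replicate 2 was the higher of the Pax5-/- libraries, and the genotypes overlapped. The level in wild-type replicate 2 was 72.7 times that in replicate 1 for Ngp, 37.4 times for Camp and 100.2 times for Ltf.

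Calprotectin, the calcium-binding dimer of S100A8 and S100A9 that abounds in the neutrophil cytosol, followed the same library pattern. S100a8 was at 2.26, 58.3 and 38.4 TPM in wild-type, at 0 and 9.41 TPM in Pax5-/- and at 167, 401 and 108 TPM in Meox2-cre. S100a9 was at 4.35, 84.1 and 52.3 TPM in wild-type, at 0.283 and 10.3 TPM in Pax5-/- and at 239, 568 and 171 TPM in Meox2-cre. Again the wild-type library 1 and the Pax5-/- library 1 were the lowest of their genotypes, and Meox2-cre replicate 2 was the highest of all libraries. Log2 fold changes of Ngp, Camp, Ltf, S100a8 and S100a9 were between -3.26 and -1.65, with standard errors between 1.35 and 1.69 and adjusted p-values between 0.10 and 0.37. Without wild-type replicate 1, all 5 were called lower in Pax5-/- (adjusted p between 0.019 and 0.045), and without Pax5-/- replicate 1 their adjusted p-values were between 0.59 and 0.86.

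The gelatin- and collagen-cleaving proteases MMP9 and MMP8 and haptoglobin complete the group. Mmp9 was at 0.399, 4.58 and 1.62 TPM in wild-type, at 0 and 2.12 TPM in Pax5-/- and at 10.7, 31.0 and 10.1 TPM in Meox2-cre. Mmp8 did not pass the filter, with 0.0516, 0.861 and 0.449 TPM in wild-type and 0 and 0.267 TPM in Pax5-/-, and was at 2.72, 7.49 and 1.84 TPM in Meox2-cre. Both overlapped between genotypes, and Mmp9 had a log2 fold change of -0.90 (adjusted p = 0.44), which was 0.30 without Pax5-/- replicate 1. Hp, the gene of haptoglobin, was at 1.13, 6.56 and 7.64 TPM in wild-type, at 0.110 and 1.10 TPM in Pax5-/- and at 14.0, 27.1 and 13.6 TPM in Meox2-cre. The higher Pax5-/- value lay just below the lowest wild-type value, and Hp passed the thresholds narrowly (log2 fold change -2.20, standard error 0.73, adjusted p = 0.048). Its adjusted p was between 0.12 and 0.33 without wild-type replicate 2 or 3 or either Pax5-/- library, and it missed 0.05 under 5 other settings, among them a pseudocount of 1 and robust eBayes.

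**Figure D4:**
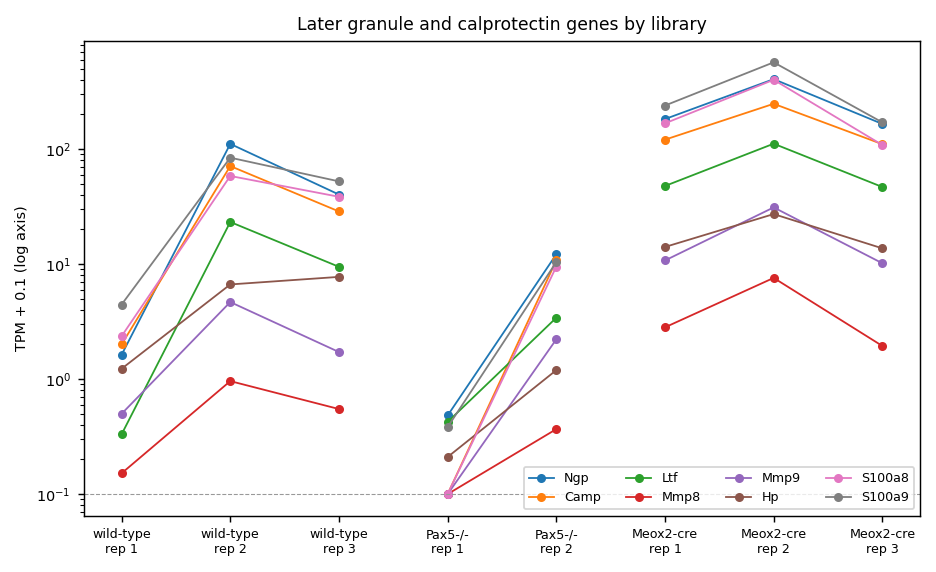
TPM + 0.1 (log axis) of the 6 later granule and 2 calprotectin genes in each of the 8 libraries; lines join the values of one gene within a group and stand for no order, and the dashed line marks 0 TPM. All 8 genes are lowest in replicate 1 within wild-type and within Pax5-/-, and highest in replicate 2 of the Meox2-cre libraries.

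Summed over these 8 genes, the level was 11.9, 360 and 179 TPM in wild-type, 1.10 and 49.3 TPM in Pax5-/- and 785, 1799 and 627 TPM in Meox2-cre. The order with wild-type replicate 2 highest and replicate 1 lowest was held by 17 of the 33 members tested and by 19.1% of all tested entries. The order in both genotypes, with Pax5-/- replicate 2 above replicate 1 as well, was held by 16 members and by 8.29% of all entries. Both orders were read from later granule and calprotectin genes, which are among the members counted, so these counts do not test them. The SD of log2(TPM + 0.5) over the wild-type libraries exceeded 0.6 for 18 of the 33 members and for 5.91% of all entries, whose median SD was 0.195. Sums of erythroid, basophil and mast cell, dendritic, and T and NK cell genes were also lowest in wild-type replicate 1. That of megakaryocyte genes was not, at 14.5, 12.2 and 20.4 TPM in wild-type. The erythroid genes Alas2, Klf1 and Car1 with the globin entries summed to 61.2, 139.96 and 147 TPM in wild-type and to 54.3 and 8.96 TPM in Pax5-/-. In Pax5-/- the erythroid sum was lower in replicate 2, in which the later granule genes were higher. That difference lay mostly in Alas2, at 48.0 and 2.73 TPM, while Car1 was at 1.31 and 2.76 TPM. Of the globin entries in the mm9 tables, Hba-a1 was listed at 0.265 TPM in one Pax5-/- library and otherwise at 0, and Hbb-b1 at 0 in every library. The erythroid sum of 2518 to 3762 TPM in Meox2-cre came mostly from Hbb-b2, an entry matched in those tables only. Klf1, a transcription factor of red cell precursors, was called lower in Pax5-/- (adjusted p = 0.011, and 0.081 and 0.14 without either Pax5-/- library). The basophil and mast cell genes Mcpt8, Prss34, Cpa3, Ms4a2 and Fcer1a summed to 2.84, 9.997 and 10.2 TPM in wild-type, 6.31 and 15.4 TPM in Pax5-/- and 9.94 to 18.0 TPM in Meox2-cre, with Fcer1a at 0 in all wild-type libraries. The part of cells other than pro-B cells in the member levels was not tested.

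Lyz2, the lysozyme of macrophages and neutrophils, was at 16.2, 46.3 and 57.5 TPM in wild-type, at 13.3 and 14.3 TPM in Pax5-/- and at 93.0, 144 and 87.1 TPM in Meox2-cre. The Pax5-/- values were below those of wild-type, of which replicate 1 was close to them, and the log2 fold change of -1.32 (standard error 0.47) had an adjusted p of 0.062. It was 0.00046 without wild-type replicate 1. Lyz1, its near-identical neighbour, did not exceed 0.548 TPM in any library, and how reads shared by both genes were counted was not tested.

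Anxa1 and Lgals3 encode annexin A1 and galectin-3, cytosolic proteins of myeloid cells that also occur in other cells. Anxa1 was at 54.9, 75.0 and 79.7 TPM in wild-type, at 14.4 and 18.7 TPM in Pax5-/- and at 106, 107 and 88.1 TPM in Meox2-cre. The libraries of a genotype lay close together and far from the other genotype (log2 fold change -2.04, standard error 0.19, adjusted p = 0.00026). Lgals3 was at 1.35, 5.12 and 6.53 TPM in wild-type, at 0.105 and 0.583 TPM in Pax5-/- and at 6.86, 9.86 and 7.002 TPM in Meox2-cre. It was lower in both Pax5-/- libraries (log2 fold change -2.37, standard error 0.58, adjusted p = 0.016), but remained under the level threshold of a call. Its adjusted p was 0.059 without wild-type replicate 2, 0.16 without Pax5-/- replicate 1 and 0.086 without replicate 2, whereas that of Anxa1 did not exceed 0.013 when any library was left out.

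Among the receptors of the colony-stimulating factors, which drive the growth of myeloid progenitors, that of GM-CSF is made of α and β chains. Csf2ra, the α chain that binds GM-CSF, was at 34.4, 34.6 and 45.7 TPM in wild-type, at 26.2 and 25.5 TPM in Pax5-/- and at 38.8, 40.8 and 36.8 TPM in Meox2-cre. Csf2rb, the β chain shared by the receptors of GM-CSF, IL-3 and IL-5, was at 20.3, 18.2 and 14.8 TPM in wild-type, at 35.1 and 31.8 TPM in Pax5-/- and at 21.8, 18.9 and 22.4 TPM in Meox2-cre. Csf2rb2, the IL-3-specific β chain of the mouse, was at 7.86, 5.42 and 5.22 TPM in wild-type, at 12.0 and 11.7 TPM in Pax5-/- and at 7.47, 5.51 and 6.50 TPM in Meox2-cre. None of the 3 overlapped between genotypes: the α chain was lower (log2 fold change -0.54, standard error 0.16, adjusted p = 0.031), and both β chains were higher, by 0.91 (standard error 0.17, adjusted p = 0.0052) for Csf2rb and 0.91 (standard error 0.22, adjusted p = 0.016) for Csf2rb2. With either Pax5-/- library left out, adjusted p-values were 0.16 and 0.20 for Csf2ra, 0.087 and 0.069 for Csf2rb and 0.14 and 0.15 for Csf2rb2, and that of Csf2rb2 was 0.052 without wild-type replicate 2. The β chains are near-identical neighbours on chromosome 15, and how their shared reads were counted was not tested. Both entries, like those of Csf1r and Cebpd, carry a mark in their names that was read as overlap with another gene.

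Csf1r, the M-CSF receptor of monocytes and macrophages, was at 1.44, 2.47 and 2.72 TPM in wild-type, at 0.764 and 1.78 TPM in Pax5-/- and at 4.37, 5.33 and 4.18 TPM in Meox2-cre. The genotypes overlapped (adjusted p = 0.20). Csf3r, the G-CSF receptor of the neutrophil lineage, was at 0.125, 0.552 and 0.696 TPM in wild-type, at 0.0366 and 0.142 TPM in Pax5-/- and at 1.35, 2.77 and 1.12 TPM in Meox2-cre, and did not pass the filter. Thus the 2 receptors that define the monocyte and neutrophil lineages remained at a few TPM or less in every library.

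The 4 C/EBP factors were low in all groups. Cebpa, the factor that starts granulocyte development, was at 0.576, 2.02 and 1.72 TPM in wild-type, at 0.842 and 1.02 TPM in Pax5-/- and at 1.90, 1.71 and 1.76 TPM in Meox2-cre. Cebpb, active in macrophages and emergency granulopoiesis, was at 1.00, 5.48 and 4.60 TPM in wild-type, at 4.20 and 5.89 TPM in Pax5-/- and at 2.04, 2.21 and 1.76 TPM in Meox2-cre. Cebpe, required for the genes of the later granules, was at 0.511, 3.31 and 1.19 TPM in wild-type, at 0.120 and 0.662 TPM in Pax5-/- and at 2.69, 4.94 and 2.81 TPM in Meox2-cre. The genotypes overlapped in these 3 genes (adjusted p = 0.53, 0.42 and 0.15), with a log2 fold change of Cebpb of 0.62 that was -0.01 without wild-type replicate 1, and Cebpe showed the library order of the later granule genes. Cebpd was at 0.392, 1.10 and 0.650 TPM in wild-type, at 1.97 and 2.54 TPM in Pax5-/- and at 2.42, 2.401 and 1.28 TPM in Meox2-cre. Both Pax5-/- values were above all wild-type values (log2 fold change 1.22, standard error 0.33, adjusted p = 0.024), with an adjusted p of 0.051 without wild-type replicate 3 and of 0.086 and 0.16 without Pax5-/- replicates 1 and 2.

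Of the 4 genes of Fc receptors and adaptors, 2 were called higher in Pax5-/-. Fcer1g encodes the Fc receptor γ chain, the ITAM-bearing adaptor of several activating receptors, and was at 4.04, 11.5 and 15.3 TPM in wild-type, at 68.4 and 90.8 TPM in Pax5-/- and at 16.5, 24.6 and 12.5 TPM in Meox2-cre. Fcgr3, the low-affinity IgG receptor that depends on this chain, was at 0.936, 1.93 and 1.90 TPM in wild-type, at 5.36 and 8.66 TPM in Pax5-/- and at 4.05, 6.06 and 2.91 TPM in Meox2-cre. Both were called higher, with log2 fold changes of 3.06 (standard error 0.47, adjusted p = 0.0025) and 1.85 (standard error 0.33, adjusted p = 0.0046), and no library overlapped between the genotypes. Without Pax5-/- replicate 2, the adjusted p-values were 0.065 and 0.079 at log2 fold changes of 2.86 and 1.53. Tyrobp, the adaptor DAP12, was at 6.26, 25.0 and 26.6 TPM in wild-type, at 30.4 and 74.6 TPM in Pax5-/- and at 46.2, 59.2 and 30.2 TPM in Meox2-cre. The lower Pax5-/- value was just above the wild-type values and the log2 fold change of 1.53 (standard error 0.63) had an adjusted p of 0.094. The ratio of Tyrobp to Fcer1g was between 1.55 and 2.17 in wild-type, between 2.41 and 2.81 in Meox2-cre, and 0.444 and 0.821 in Pax5-/-. Fcgr1, the high-affinity IgG receptor of monocytes, did not exceed 0.714 TPM in any library.

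Among the surface proteins, 2 lectin receptors were called higher in Pax5-/-. Clec12a, a C-type lectin receptor of myeloid cells that carries an ITIM, was at 1.54, 2.18 and 2.64 TPM in wild-type, at 25.4 and 28.6 TPM in Pax5-/- and at 4.88, 4.00 and 2.45 TPM in Meox2-cre. Cd33, a sialic acid-binding lectin of the Siglec family, was at 1.33, 2.42 and 1.76 TPM in wild-type, at 10.8 and 8.77 TPM in Pax5-/- and at 2.73, 3.19 and 2.21 TPM in Meox2-cre. The log2 fold changes were 3.41 (standard error 0.24, adjusted p = 6.3e-05) and 2.16 (standard error 0.27, adjusted p = 0.00087), the lowest Pax5-/- value was well above the highest wild-type value in both genes, and adjusted p-values did not exceed 0.0087 and 0.028 when any library was left out. Sirpa, which binds CD47, was at 13.2, 16.2 and 16.6 TPM in wild-type, at 17.8 and 20.0 TPM in Pax5-/- and at 18.8, 18.4 and 19.3 TPM in Meox2-cre, without overlap between the genotypes but with an adjusted p of 0.20.

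Itgam encodes the integrin chain CD11b, which the study used with Gr1 to define myeloid cells by flow cytometry, and went the other way. It was at 4.98, 10.2 and 10.3 TPM in wild-type, at 3.26 and 3.08 TPM in Pax5-/- and at 13.5, 21.2 and 16.8 TPM in Meox2-cre. Both Pax5-/- libraries lay below all wild-type libraries (log2 fold change -1.22, standard error 0.32, adjusted p = 0.022), but the adjusted p exceeded 0.05 without wild-type replicate 2 (0.074) or 3 (0.053) and without either Pax5-/- library (0.14 and 0.18). The 3 remaining surface markers did not pass the filter. Emr1, the macrophage antigen F4/80, was at 0.0390, 0.191 and 0.566 TPM in wild-type, at 0 and 0.0253 TPM in Pax5-/- and at 1.17, 1.42 and 1.39 TPM in Meox2-cre. Ms4a3, a marker of granulocyte-monocyte progenitors, was at 0.626, 1.35 and 0.847 TPM in wild-type, at 0.146 and 0 TPM in Pax5-/- and at 2.01, 1.60 and 0.689 TPM in Meox2-cre. Cd14, the co-receptor for lipopolysaccharide on monocytes, did not exceed 0.143 TPM in any library and was listed at 0 in both Pax5-/- libraries.

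**Figure D5:**
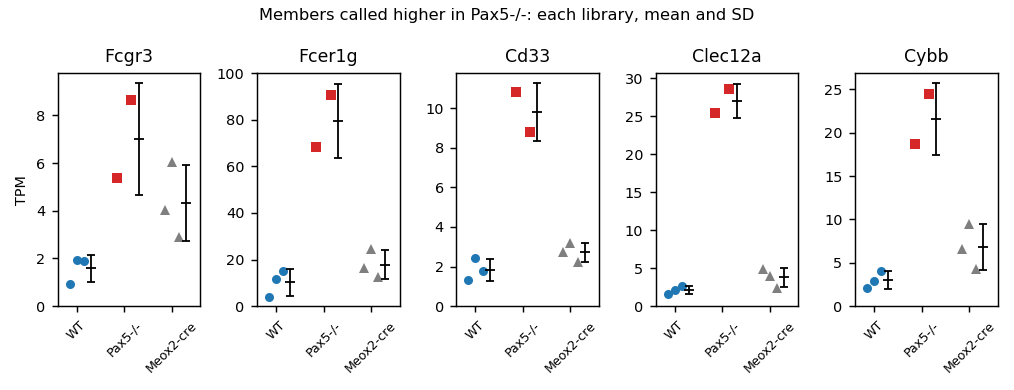
TPM of the 5 members called higher in Pax5-/- in each library (points), with mean and SD per group (bars beside the points; 3 wild-type, 2 Pax5-/- and 3 Meox2-cre libraries). In each gene the lower Pax5-/- value lies above all 3 wild-type values, for example 25.4 against at most 2.64 TPM in Clec12a.

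The 4 subunits of the phagocyte NADPH oxidase, which makes superoxide, differed in level by more than 2 orders of magnitude and did not change in the same direction. Cybb, the catalytic membrane subunit gp91phox, was at 2.11, 2.88 and 4.07 TPM in wild-type, at 18.7 and 24.5 TPM in Pax5-/- and at 6.65, 9.53 and 4.29 TPM in Meox2-cre. Cyba, its membrane partner p22phox, was at 503, 437 and 317 TPM in wild-type, at 224 and 301 TPM in Pax5-/- and at 518, 522 and 555 TPM in Meox2-cre. Cybb was called higher (log2 fold change 2.68, standard error 0.28, adjusted p = 0.00038, at most 0.022 with any library left out), whereas Cyba was lower without a library in common (log2 fold change -0.66, standard error 0.21, adjusted p = 0.041). The adjusted p of Cyba was above 0.05 when any one library other than wild-type replicate 3 was left out (0.085 to 0.31) and when the data were rescaled by median ratios or quantiles. The cytosolic subunit genes were higher in Pax5-/-. Ncf4, the p40phox gene, was at 91.8, 99.8 and 82.6 TPM in wild-type, at 199 and 210.3 TPM in Pax5-/- and at 93.2, 84.7 and 93.4 TPM in Meox2-cre. Ncf1, the p47phox gene, was at 4.31, 8.78 and 5.73 TPM in wild-type, at 12.9 and 21.2 TPM in Pax5-/- and at 10.6, 15.0 and 10.5 TPM in Meox2-cre. No library overlapped between genotypes in either gene, with log2 fold changes of 1.16 (standard error 0.11, adjusted p = 0.00028) for Ncf4 and 1.39 (standard error 0.32, adjusted p = 0.013) for Ncf1. Without Pax5-/- replicate 1 or 2, the adjusted p of Ncf1 was 0.055 and 0.18, while that of Ncf4 was at most 0.016.

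Other genes of the myeloid programme were taken from a list of 34, of which 31 were tested. Of these, 6 had an adjusted p below 0.05 and were higher in Pax5-/-, and 13 were lower, which are 19.4% and 41.9% of those tested, against 15.6% and 21.5% of all entries. Both directions include genes at high levels in wild-type pro-B cells: Syk (387 to 431 TPM) and Lyn (75.1 to 91.0 TPM) were lower, and Srgn (700 to 818 TPM) was higher. The 6 became 3, and the 13 became 7, without Pax5-/- replicate 2. Their median log2 fold change was -0.25. Spi1, which encodes PU.1, was at 207, 176 and 141 TPM in wild-type, at 349 and 347 TPM in Pax5-/- and at 154, 153 and 170.3 TPM in Meox2-cre. Irf8, a factor of monocyte and B cell development, was at 231, 241 and 239.9 TPM in wild-type, at 40.4 and 78.4 TPM in Pax5-/- and at 251, 237 and 248 TPM in Meox2-cre. The groups did not overlap, with Spi1 higher (log2 fold change 1.01, standard error 0.16, adjusted p = 0.0026, and 0.054 without Pax5-/- replicate 2) and Irf8 lower (log2 fold change -2.06, standard error 0.24, adjusted p = 0.00069). Klf4, a factor of monocytes, was higher at 13.0 and 11.7 TPM against 3.12 to 5.23 TPM (adjusted p = 0.0030, and 0.060 and 0.054 without either Pax5-/- library). Gfi1, a repressor needed for neutrophils, was lower at 15.5 and 15.6 TPM against 28.9 to 43.1 TPM (adjusted p = 0.0024, and 0.051 without Pax5-/- replicate 2). Cebpg, a C/EBP factor without an activation domain, was lower at 15.7 and 16.6 TPM against 26.1 to 46.2 TPM (adjusted p = 0.0081, and 0.096 and 0.092 without either Pax5-/- library). Zeb2, a zinc finger repressor, was called lower at 10.1 and 8.37 TPM against 26.2 to 35.4 TPM (log2 fold change -1.70, adjusted p = 0.00040), a change of -1.57, short of 3-fold, without Pax5-/- replicate 2.

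The remaining calls on that list were 2 higher and 2 lower. Fgr, a Src family kinase of myeloid cells, was at 0.303 to 1.32 TPM in wild-type and at 10.8 and 11.5 TPM in Pax5-/- (adjusted p = 0.00086). Serpinb1a, an inhibitor of elastase, proteinase 3 and cathepsin G, was at 30.9 to 32.4 TPM in wild-type and at 115 and 142 TPM in Pax5-/- (adjusted p = 3.9e-05). Of the genes of these proteases, Elane was lower (adjusted p = 0.016), Ctsg was higher (adjusted p = 0.015) and Prtn3 overlapped between genotypes (adjusted p = 0.55). The test of Elane depended on single libraries, as given above. Fcgr2b, the inhibitory IgG receptor of B cells and myeloid cells, was at 18.9 to 25.9 TPM in wild-type and at 3.93 and 4.61 TPM in Pax5-/- (adjusted p = 0.00016). Mgst1, a microsomal glutathione transferase, was at 32.1 to 37.6 TPM in wild-type, at 0 and 0.0869 TPM in Pax5-/- and at 47.3 to 54.5 TPM in Meox2-cre (adjusted p = 2.8e-06).

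Lists of further cell types were checked in the same libraries. Megakaryocyte genes summed to 12.2 to 20.4 TPM in wild-type and 34.0 and 36.2 TPM in Pax5-/-, and of these Gp9, a platelet glycoprotein, was called higher at 28.3 and 33.9 TPM (adjusted p = 0.00052), whereas Pf4, Ppbp, Gp1bb and Itga2b had no adjusted p below 0.05 or were not tested. Dendritic cell genes summed to 161 to 214 TPM in wild-type and 174 and 225 TPM in Pax5-/-, mostly from Bst2 and Tcf4, with Cd209d listed at 0 in wild-type, and Siglech, a marker of plasmacytoid dendritic cells, was called higher at 1.79 and 9.06 TPM against 0.106 to 1.12 TPM (adjusted p = 0.031). Without wild-type replicate 1 or 2 or Pax5-/- replicate 2, the adjusted p of Siglech was 0.066, 0.077 and 0.25. Tcf4, a factor of plasmacytoid dendritic cells that B cells also express, was lower at 52.3 and 52.4 TPM against 78.3 to 89.8 TPM (adjusted p = 0.0026). T and NK cell genes summed to 2.85 to 10.3 TPM in wild-type and 5.28 and 7.57 TPM in Pax5-/-, in which Cd3e and Ncr1 were at 0. Of these, the NK cell receptor gene Klrb1c was called lower (adjusted p = 0.035), but its adjusted p was 0.093 and 0.091 without wild-type replicates 2 and 3 and 0.20 and 0.19 without Pax5-/- replicates 1 and 2. Cd4 was at 3.97 and 5.88 TPM against 0.368 to 0.712 TPM (adjusted p = 0.00086).

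The Meox2-cre reads were aligned by another program to a later build, and the libraries have no partner group here, so their levels are a description and were set against the other tables without a test. Summed over the 40 members, they were at 1927, 3029 and 1713 TPM, and replicate 2 was the highest. The sums were 808, 1247 and 929 TPM in wild-type and 781 and 1022 TPM in Pax5-/-. Most of the difference between Meox2-cre libraries lay in the later granule and calprotectin genes, in which S100a9 reached 326 ± 213 TPM (SD, n = 3), Ngp 251 ± 134 TPM and S100a8 226 ± 155 TPM. In contrast, the growth factor receptors summed to 73.8, 73.4 and 71.0 TPM and the oxidase subunits to 629, 631 and 664 TPM. These sums came mostly from Csf2ra and Csf2rb and from Cyba and Ncf4. Among the lower genes of these groups, Cybb (6.65, 9.53 and 4.29 TPM), Ncf1, Csf1r and Csf3r (1.35, 2.77 and 1.12 TPM) were also highest in replicate 2, whereas Csf2rb2 was lowest there. The members called higher in Pax5-/- were at 17.8 ± 6.15 TPM for Fcer1g, 6.82 ± 2.62 TPM for Cybb, 4.34 ± 1.59 TPM for Fcgr3, 3.78 ± 1.23 TPM for Clec12a and 2.71 ± 0.491 TPM for Cd33 (SD, n = 3 for each) in the Meox2-cre libraries.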

How the data were processed

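The RNA-seq libraries were made from polyadenylated RNA of pro-B cells sorted from bone marrow: 3 wild-type, 2 Pax5-/- and 3 Meox2-cre. All deposited values are TPM, scaled by the authors to an equal total with antigen receptor genes kept in. Per the study's methods, the wild-type and Pax5-/- reads were aligned to mm9 with TopHat 1.4.1a and those of Meox2-cre to mm10 with STAR 2.4.2a, and both were counted with featureCounts 1.5.0 on refGene annotations. TPM keep no read depth, so that the depth behind a value is unknown and no counting interval is given. The commonest ratio of low values put relative depths at 1, 1.02, 1.03, 0.855 and 1.54 for the wild-type and Pax5-/- libraries in turn, and at 1, 1.03 and 1.03 for Meox2-cre, each relative to the first library of its tables.

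The members and all gene lists were chosen with earlier results of these data known. Members were matched by the entry name before any mark. The genotype test used limma (version 3.58.1, R version 4.3.3) with trended eBayes on log2(TPM + 0.5), genotype being the sole term. Entries entered it if their mean in either genotype exceeded 1 TPM, and the Benjamini-Hochberg adjustment covered all 12066. The thresholds of a call follow the methods of the study, with antigen receptor genes barred from calls. In data simulated with the spread of these libraries, 200 genes among 11676 were changed 6-fold and the others not at all. The 200 were drawn from the more highly expressed entries. Of them 197 were called, and of the others 3 were called and 13 had an adjusted p below 0.05. Noise was drawn for each gene separately, so genes that shift together between libraries are not covered. The result does not cover genes at lower levels, among them Clec12a, Cybb, Cd33, Fcgr3, Elane and Hp.

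Named in the text were all members, the called genes and transcription factors among the other myeloid genes, all B lineage genes, and called genes of the other cell type lists. The promoter windows shown, Cd4, Tcf4, the order of libraries and the ratios between genes were chosen after their values were seen. The count of members by SD was not planned beforehand. Alternatives were other pseudocounts, filters, eBayes settings, scalings and thresholds, and leaving out each library in turn. Python 3.11.15 with numpy 2.4.6, pandas 2.3.3 and matplotlib 3.10.9 produced tables and plots. A few genes of the lists are not reported here and were left out of their sums and counts. The ChIP-seq samples are not analysed here.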

Additional observations from a re-analysis of the deposited data

How the results depend on the processing

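No paired analysis was possible because replicate numbers, absent from the labels, were assigned here as names only. Of 455 comparisons of a member's log2 fold change with an alternative, 395 kept direction and side of the threshold, 46 lost an adjusted p below 0.05, 11 gained one and 3 reversed when 1 library was left out. Other filters and eBayes settings leave a fold change as it is, so that under them only the adjusted p could move. Prtn3 ranged from -0.06 without wild-type replicate 1 to 0.57 without replicate 2, and Cebpb from -0.012 to 0.99 without the same libraries. Mmp9 ranged from -2.09 without Pax5-/- replicate 2 to 0.30 without replicate 1. Anxa1, Clec12a, Cd33, Cybb and Ncf4 had an adjusted p below 0.05 under all 14 alternatives run for each. When 1 library was left out, the members called higher ranged from 3 to 7, those called lower from 1 to 10, those with an adjusted p below 0.05 from 4 to 11 (higher) and from 1 to 14 (lower), and the other myeloid genes from 3 to 7 (higher) and from 7 to 14 (lower). The highest counts of lower members came without wild-type replicate 1, and the lowest without Pax5-/- replicate 1 (for calls also without wild-type replicate 2). A Pax5-/- group left with 1 library was assumed to vary like wild-type. The members called higher were 8 at a 2-fold threshold, and those called lower were 1 with robust eBayes and 1 at an adjusted p below 0.01. Members lower at an adjusted p below 0.05 were 4 without a filter and 4 with eBayes without trend. The cause of these shifts was not tested. Rescaling by median ratios moved the median log2 fold change of all entries from -0.12 to -0.01 and that of the members from -0.35 to -0.27, and quantile normalization to -0.02 and -0.14. Meox2-cre levels moved by less than their SD under all alternatives run. With 3 libraries, leaving out 1 cannot move a mean by a full SD, so this does not show that the levels are stable. With TPM the error of counting at low levels is not known, which bears most on Elane, Hp, Lgals3, Cebpd and Fcgr3.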
